A study of Mus musculus with 3 samples.

Results

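The spleen of mice with metabolic dysfunction-associated steatohepatitis (MASH) under a phenylalanine-free treatment, labelled MASH-Phe-free, was compared with the spleen of mice labelled Chow, with the spleen labelled MASH read beside them as a reference. The question was which features of the MASH spleen stayed away from Chow although phenylalanine was removed, and which stood at the Chow level. The material was single-cell RNA, captured from the 5′ end with unique molecular identifiers (UMIs), in 1 library per group. A cell entered if it had 300 genes or more, 500 UMIs or more and no more than 10% of its UMIs from mitochondrial genes. After called doublets were removed, 15669 Chow and 15560 MASH-Phe-free cells were compared, 31229 of the 48562 cells of the series, and 17333 MASH cells served as reference. The sample labels give tissue and group only. The series text describes C3H mice given a high-fat diet and then a modified diet deficient in methionine and choline, age- and sex-matched controls on a diet that does not produce the liver disease, and HCA-1 mouse hepatocellular carcinoma cells placed under the skin of mice in both arms. It speaks of RNA of tumours, and whether the spleens came from those mice, how many animals each library pooled, and how and how long phenylalanine was withheld are not given in the sources used here.

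With 1 library per group no difference was tested, no spread between animals was known, and animal, diet and library cannot be told apart. Intervals in square brackets are 95% intervals of the counts of cells or UMIs and cover counting error only. Within each library the UMIs of all cells of a class were pooled, and levels are given as counts per 1000000 UMIs of that pool (CPM). Ratios are MASH-Phe-free over Chow unless said otherwise. A gene was called past 2-fold where its log2 ratio, taken after adding 10 CPM to both sides, was at least 1 in either direction. Of genes past 2-fold from Chow in MASH, those past 2-fold the same way in MASH-Phe-free are said to have stayed away, and those within 1.5-fold of Chow to have been back at Chow. Both readings use the same Chow library and different mice, so they share its error, and "back at Chow" describes a level and not a course in one animal.

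The spleen filters blood, recycles the iron of old red cells in its red pulp macrophages, and holds B and T cells in its white pulp. In mice it also makes red cells and granulocytes when demand rises. Phenylalanine is an essential amino acid, loaded on its transfer RNA by the synthetase of Farsa and Farsb and carried into cells by transporters such as Slc7a5. Scarcity of amino acids is read by the kinase Gcn2, which raises the transcription factor Atf4 and its targets, and by the TORC1 kinase. Type I interferons act on promoters with an interferon-stimulated response element. Glucocorticoids act through a nuclear receptor that induces Fkbp5 and Tsc22d3 in nearly every blood cell.

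The 3 libraries held 138787602 (Chow), 152501471 (MASH) and 160115282 (MASH-Phe-free) UMIs, and kept cells had medians of 7349, 6418 and 6670 UMIs. Between 1.80% and 1.97% of kept cells were called doublets. Any pair of libraries shared between 72 and 102 barcodes, under 0.7% of each. Classes were built from clusters of all libraries together and named from marker lists, so each name ends in "-like", and all markers of each class's own list were detected in every library in the 10 classes read for expression. Cells left unnamed made up 12.97%, 15.2% and 10.8%. Within them, parts led by pancreas genes made up 2.94% of the Chow library, 0.0865% of MASH and 0.148% of MASH-Phe-free, which sets the Chow library apart from both MASH libraries.

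The MASH-Phe-free spleen held smaller shares of B-like and T-like cells than the Chow spleen and larger shares of neutrophil-, monocyte-, macrophage-, erythroid- and progenitor-like cells. B-like cells made up 29.5% [28.8–30.2] of Chow, 24.0% [23.4–24.7] of MASH and 21.7% [21.0–22.3] of MASH-Phe-free cells, a ratio of 0.734 [0.707–0.763]. T-like cells made up 18.7% [18.1–19.3], 13.8% [13.3–14.3] and 12.3% [11.8–12.9], a ratio of 0.661 [0.626–0.697]. For both lymphocyte classes the MASH-Phe-free library lay farther from Chow than MASH did. Macrophage-like cells, which carried red pulp markers, made up 15.2% [14.7–15.8], 19.0% [18.5–19.6] and 19.4% [18.8–20.1], with the interval of MASH-Phe-free overlapping that of MASH. These cells were shallow, with medians of 1034, 1074 and 1151 UMIs, so the UMI minimum acts on their share.

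Of the class shares, that of erythroid cells lay farthest from Chow in MASH-Phe-free. Erythroid-like cells were 113 Chow, 1033 MASH and 718 MASH-Phe-free cells, or 0.721%, 5.96% and 4.61%, a ratio over Chow of 8.26 [6.81–10.02] in MASH and 6.40 [5.25–7.79] in MASH-Phe-free. The stage differed between the MASH libraries. The cluster led by Car1, Car2 and Klf1, genes of early red cell precursors, held 102 Chow, 605 MASH and 672 MASH-Phe-free cells, a ratio of 6.63 [5.39–8.16]. The clusters led by haemoglobin genes, Alas2 and Slc4a1, genes of late precursors, held 11, 428 and 46 cells, a ratio of 4.21 [2.18–8.13] in MASH-Phe-free and 35.2 [19.3–64.0] in MASH. Early precursors thus made up 3.49% of MASH and 4.32% of MASH-Phe-free cells, while late ones made up 2.47% and 0.296%. Whether red cells were lysed before capture is not given in the sources used here.

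Neutrophil and monocyte shares lay above Chow in MASH-Phe-free and below it in MASH. Neutrophil-like cells made up 7.16% [6.76–7.58] of Chow, 5.19% [4.87–5.53] of MASH and 12.4% [11.9–12.9] of MASH-Phe-free cells, a ratio of 1.73 [1.61–1.86]. Monocyte-like cells made up 3.96% [3.66–4.27], 3.48% [3.22–3.77] and 6.02% [5.65–6.41], a ratio of 1.52 [1.38–1.68]. The difference lay in the cluster led by Fn1, Vcan and Ccr2, genes of classical monocytes, with 441, 497 and 764 cells and a ratio of 1.74 [1.55–1.96]. The cluster led by Ace, Fcgr4 and Ear2, genes of patrolling monocytes, held 179, 107 and 173 cells, a ratio of 0.973 [0.791–1.20]. Cells with progenitor markers numbered 98, 57 and 231, a ratio of 2.37 [1.88–3.003]. Of the other granulocytes, basophil-like cells numbered 46, 40 and 34, a ratio of 0.744 [0.478–1.16] whose interval holds 1, and eosinophil-like cells 12, 35 and 12, most frequent in MASH.

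Antibody-secreting cells, which the series title names, and cells with germinal centre genes were more frequent in MASH-Phe-free than in either other library. Plasma-like cells numbered 302 in Chow, 259 in MASH and 384 in MASH-Phe-free, or 1.93% [1.72–2.15], 1.49% [1.32–1.69] and 2.47% [2.23–2.72], a ratio of 1.28 [1.10–1.49]. Germinal centres are where B cells mature and switch class, and cells in parts of clusters led by their genes (Rgs13 and Mef2b among them) numbered 70, 113 and 138, a ratio of 1.99 [1.49–2.64]. They met no class rule and are counted among the unnamed. Natural killer (NK)-like cells made up 3.03%, 3.33% and 2.69%, a ratio of 0.890 [0.782–1.01] whose interval holds 1. Dendritic-like cells made up 5.05%, 6.73% and 4.48%, a ratio of 0.887 [0.803–0.980]. Plasmacytoid-like cells, the dendritic kin that make type I interferon, numbered 39, 37 and 80, a ratio of 2.07 [1.41–3.03]. That ratio became 0.973 when cells were classed one by one, and the dendritic ratio became 1.01. Shares of one library add to 100%, so with erythroid-, neutrophil-, macrophage-like and unnamed cells left out of the total the ratio was 0.889 for B-like, 0.800 for T-like and 1.55 for plasma-like cells.

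**Figure D1:**
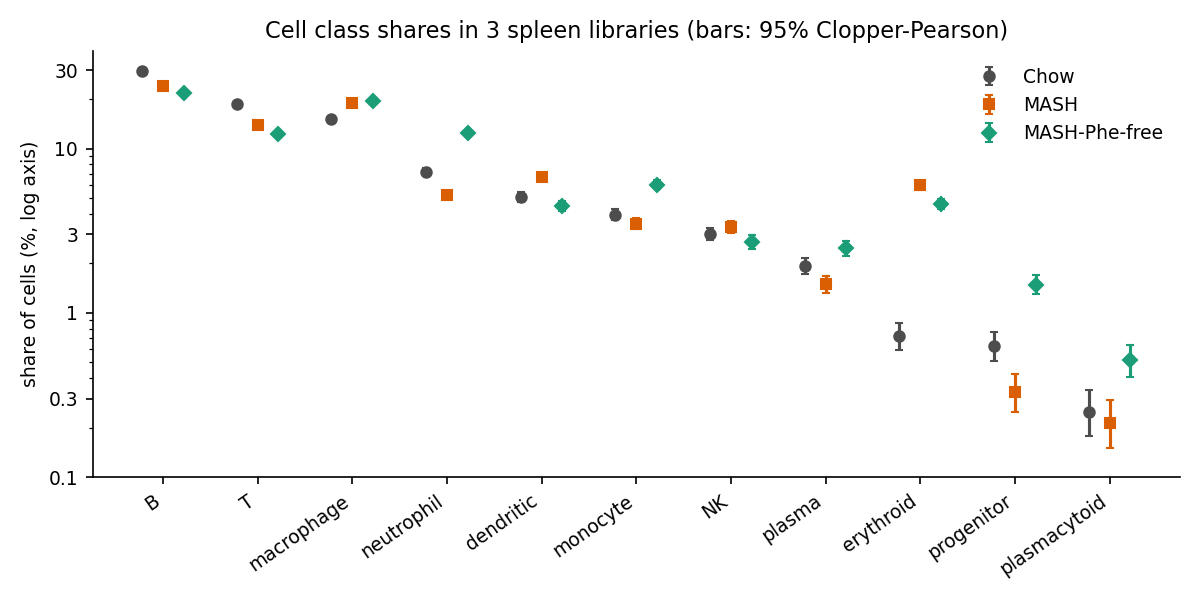
Share of cells in each class (percent of the library's cells, log axis) in the Chow, MASH and MASH-Phe-free libraries, with bars for 95% counting intervals and 1 library per group. MASH-Phe-free lies above Chow for neutrophil-, monocyte-, erythroid- and progenitor-like cells and below it for B-like and T-like cells.

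The share of genes past 2-fold between MASH-Phe-free and Chow was under 2% in each of the 10 classes read. In B-like cells 2 genes were past 2-fold higher and 9 lower, 0.0873% of 12601 read, and in T-like cells 4 higher and 12 lower, 0.132%. Neutrophil-like cells had 14 higher and 14 lower (0.264%) and monocyte-like cells 18 and 17 (0.325%). Erythroid-like cells had 9 and 16 (0.242%). The shares were larger in the other classes, with 17 and 43 in dendritic-like (0.603%), 75 and 12 in NK-like (0.937%), 23 and 80 in macrophage-like (1.04%), 68 and 64 in plasma-like (1.47%) and 45 and 143 in progenitor-like cells (1.8%). Many of these genes drew over 25% of their UMIs in the higher library from a single cell. Without such genes 10 of 11 remained in B-like, 6 of 16 in T-like, 77 of 87 in NK-like, 91 of 103 in macrophage-like, 12 of 35 in monocyte-like, 10 of 28 in neutrophil-like, 26 of 60 in dendritic-like, 28 of 132 in plasma-like, 6 of 25 in erythroid-like and 53 of 188 in progenitor-like cells. Each such gene named here carries that share.

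What stayed away and what was back at Chow differed by class. In neutrophil-like cells 410 of the 429 genes past 2-fold from Chow in MASH were back at Chow (9.75% of genes read) and 7 had stayed away (0.166%). In erythroid-like cells 94 were back at Chow (1.79%) and 6 had stayed away (0.115%). In NK-like cells the order was the reverse, with 37 stayed (0.62%) and 7 back at Chow (0.117%). These NK counts drew on a cycling part of 1 Chow, 10 MASH and 11 MASH-Phe-free cells, and fewer genes stayed without it. Macrophage-like cells had 32 stayed and 21 back (0.571% and 0.375%), dendritic-like cells 21 and 18 (0.381% and 0.327%), and monocyte-like cells 15 and 10 (0.276% and 0.184%). B-like and T-like cells had 7 stayed and 5 back each (0.127% and 0.0906% in B-like, 0.129% and 0.0922% in T-like). Plasma-like cells had the largest stayed share, with 66 stayed and 46 back (2.64% and 1.84%), of which 5 and 9 met the rule for named genes, which leaves out immunoglobulin genes. Progenitor-like cells had 33 stayed and 81 back (0.517% and 1.27%). Stromal and endothelial genes in this class also differed between libraries. Sparc stood at 199, 531 and 70.5 CPM and Igfbp7 at 303, 550 and 44.6 CPM, with 38.9% and 41.3% of their Chow UMIs in 1 cell. Col1a1 was highest in MASH-Phe-free, at 20.4 CPM, with 93.4% of its UMIs there in 1 cell. Their part in the progenitor counts was not tested. The neutrophil counts move with the mix of maturation stages described further on, and within the most mature cluster alone 24 genes had stayed and 46 were back. The erythroid counts move with the mix of stages as well. The late erythroid clusters held 11 Chow, 428 MASH and 46 MASH-Phe-free cells, and fewer genes were back at Chow with the clusters weighted alike.

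Genes induced by type I interferon lay above Chow in MASH and closer to Chow in MASH-Phe-free. The list held 36 genes, and a class's median log2 ratio was taken over members with at least 20 UMIs. In neutrophil-like cells the median was −0.07 in MASH-Phe-free against 1.92 in MASH. There 26 of 32 members were past 2-fold higher in MASH, beside 2.95% of all genes read, and 0 were in MASH-Phe-free, beside 0.114%. Within the mature neutrophil cluster the medians were 0.09 and 1.17, with 17 of 29 members past 2-fold in MASH. Outside neutrophils the medians in MASH-Phe-free were 0.12 in B-like, 0.17 in T-like, 0.09 in plasma-like, 0.02 in NK-like, 0.22 in dendritic-like, 0.17 in macrophage-like and 0.32 in monocyte-like cells. Those in MASH were 0.56, 0.38, 0.39, 0.37, 0.93, 0.79 and 0.70. Over all genes read, the median in MASH-Phe-free lay between −0.05 and 0.00 in every class. In all 8 classes the list thus lay closer to Chow in MASH-Phe-free than in MASH.

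Promoters of this list often held an interferon motif, which the comparison of libraries did not use. The 250 bases before the RefSeq transcription start (GRCm38.p6, an older build than that of the deposited counts) were found for 26 of the 36 genes and searched on both strands for GAAANNGAAA, the core of the interferon-stimulated response element. The motif occurred in 13 of these 26 (50%) and in 936 of 27025 genes with a promoter in the table (3.46%). It occurred in 11 of 16 promoters of the interferon-γ list, which shares genes with the first. By contrast it was in 1 of 18 promoters of the glucocorticoid list and in 0 of 26 of the ATF4 list. The promoters of 3 genes with some of the widest gaps between the MASH libraries are shown 5′ to 3′ on the gene's strand, in lower case, with the motif or its reverse complement in capitals, overlapping copies being joined. A match describes the letters and shows no binding. They are Isg15, a ubiquitin-like protein joined to other proteins (chr4:156200819-156201068, minus strand), Ifit1, a binder of viral RNA ends (chr19:34640639-34640888, plus strand), and its neighbour Ifit3 (chr19:34583279-34583528, plus strand).
Isg15: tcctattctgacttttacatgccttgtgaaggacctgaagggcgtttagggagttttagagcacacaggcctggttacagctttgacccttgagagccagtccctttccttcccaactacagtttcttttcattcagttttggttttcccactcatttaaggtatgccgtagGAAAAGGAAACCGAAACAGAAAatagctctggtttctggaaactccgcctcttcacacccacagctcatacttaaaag
Ifit1: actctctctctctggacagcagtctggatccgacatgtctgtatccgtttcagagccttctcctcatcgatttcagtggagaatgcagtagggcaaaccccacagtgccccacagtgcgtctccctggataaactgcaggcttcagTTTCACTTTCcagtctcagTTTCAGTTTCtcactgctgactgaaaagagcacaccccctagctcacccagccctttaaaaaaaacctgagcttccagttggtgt
Ifit3: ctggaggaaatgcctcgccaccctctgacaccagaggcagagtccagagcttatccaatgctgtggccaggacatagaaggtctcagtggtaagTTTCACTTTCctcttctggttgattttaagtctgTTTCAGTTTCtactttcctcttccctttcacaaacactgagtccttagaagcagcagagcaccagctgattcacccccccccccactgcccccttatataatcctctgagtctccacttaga

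These 3 genes followed the list in neutrophil-like cells. Isg15 (ENSMUSG00000035692) stood at 191 CPM in Chow, 1431 CPM in MASH and 239 CPM in MASH-Phe-free, a ratio of 1.25 [1.19–1.31] in MASH-Phe-free and 7.50 [7.17–7.85] in MASH. Ifit1 stood at 56.4, 514 and 53.2 CPM and Ifit3 at 67.4, 702 and 68.6 CPM in the same order. MASH was high and the other two libraries were alike. Rsad2, the antiviral enzyme viperin, stood at 88.1, 657 and 85.1 CPM. In B-like cells Ifi44 was at 10.98, 37.1 and 10.97 CPM, Ifit3 at 11.8, 37.4 and 16.0 CPM and the receptor chaperone Rtp4 at 14.3, 39.7 and 19.7 CPM, again near Chow in MASH-Phe-free.

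The return was not complete in every class. Isg15 was higher in MASH-Phe-free than in Chow, with an interval that leaves out 1, in 8 of 8 classes, at ratios from 1.25 to 3.54, against 1.86 to 7.50 in MASH. Monocyte-like cells kept the widest distance from Chow, with 34 of 34 members higher in MASH-Phe-free, beside 41% of all genes. There Isg15 was at 87.4, 249.95 and 168 CPM (ratio 1.92 [1.77–2.08]) and Ifit1 at 12.9, 42.0 and 32.9 CPM (ratio 2.54 [2.08–3.13]), between Chow and MASH. The chemokine Cxcl10, a target of interferon-γ, stood at 13.02, 30.9 and 51.6 CPM in monocyte-like cells, highest in MASH-Phe-free, at a ratio of 3.96 [3.27–4.83]. The list of interferon-γ targets as a whole had medians of 0.14 (MASH-Phe-free) and 0.07 (MASH) in monocyte-like cells. In neutrophil-like cells its medians were −0.14 and 1.25, with 15 of 22 past 2-fold in MASH and 0 in MASH-Phe-free. Within the mature neutrophil cluster they were 0.07 and 0.51, with 3 of 19 members past 2-fold in MASH.

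**Figure D2:**
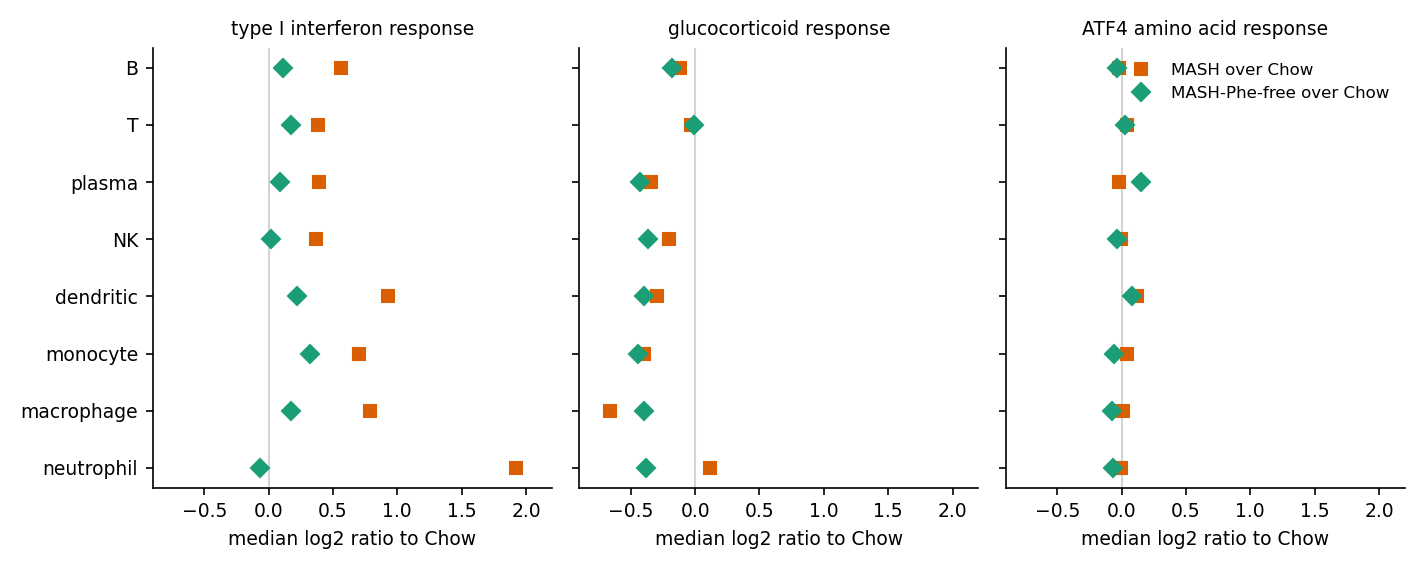
Median log2 ratio over Chow of selected gene lists in each class, with MASH and MASH-Phe-free as separate points and 1 library per group. The type I interferon points lie closer to 0 in MASH-Phe-free than in MASH, while both sets of glucocorticoid points lie at or below 0 in most classes.

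Fkbp5 and several other genes induced by glucocorticoids were lower in MASH-Phe-free than in Chow in 8 of 8 classes, while the list as a whole was mixed. Fkbp5 (ENSMUSG00000024222), a co-chaperone that dampens the receptor, was lower in MASH-Phe-free in 8 of 8 classes, at ratios from 0.133 to 0.430. In B-like cells it stood at 197 CPM in Chow, 40.0 CPM in MASH and 41.5 CPM in MASH-Phe-free, a ratio of 0.210 [0.198–0.223]. In monocyte-like cells it stood at 292, 31.2 and 38.9 CPM, a ratio of 0.133 [0.121–0.146]. In both classes Chow was high and both MASH libraries were low and near each other. The same order held in T-like (148, 62.4 and 63.6 CPM), NK-like (206, 75.8 and 75.5 CPM), dendritic-like (156, 25.4 and 22.7 CPM), plasma-like (29.2, 5.48 and 6.88 CPM), macrophage-like (315, 56.9 and 86.9 CPM) and neutrophil-like cells (141, 62.7 and 45.9 CPM).

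Other members went the same way across classes. Tsc22d3, the leucine zipper protein GILZ, was lower with an interval that leaves out 1 in 8 of 8 classes, at ratios from 0.448 to 0.682. Ddit4, an inhibitor of TORC1, was lower in 8 of 8 (ratios 0.221 to 0.625), Pik3ip1, an inhibitor of PI3 kinase, in 8 of 8 (0.162 to 0.645), and the chemokine receptor Cxcr4 in 8 of 8 (0.314 to 0.761). In monocyte-like cells Ddit4 stood at 258, 71.4 and 56.9 CPM and Cxcr4 at 167, 74.5 and 63.0 CPM, so both MASH libraries were low. Per1, a clock gene with a glucocorticoid response, and Nfkbia, the inhibitor of NF-κB, were lower in 7 and 7 of 8 classes.

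The list did not move as one. The metallothionein Mt2, also a glucocorticoid target, was higher with an interval that leaves out 1 in 5 of 6 classes and Mt1 in 3 of 7. For Mt2, 1 cell held 26.7% of the UMIs of the higher library in T-like and 42.4% in plasma-like cells. The list median in MASH-Phe-free was −0.45 in monocyte-like, −0.43 in plasma-like, −0.40 in dendritic-like, −0.40 in macrophage-like, −0.38 in neutrophil-like, −0.37 in NK-like, −0.18 in B-like and −0.01 in T-like cells. In MASH the medians were −0.40, −0.34, −0.30, −0.66, 0.12, −0.20, −0.12 and −0.03. Within the mature neutrophil cluster alone the median was −0.51 in MASH-Phe-free and −0.63 in MASH, so both lay below Chow there. In monocyte-like cells 3 of 20 members were past 2-fold lower, beside 0.14% of genes, and in B-like cells 3 of 18, beside 0.0631%. The time of day and the handling of the mice before the spleens were taken are not given in the sources used here. Their part in these values was not tested.

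**Figure D3:**
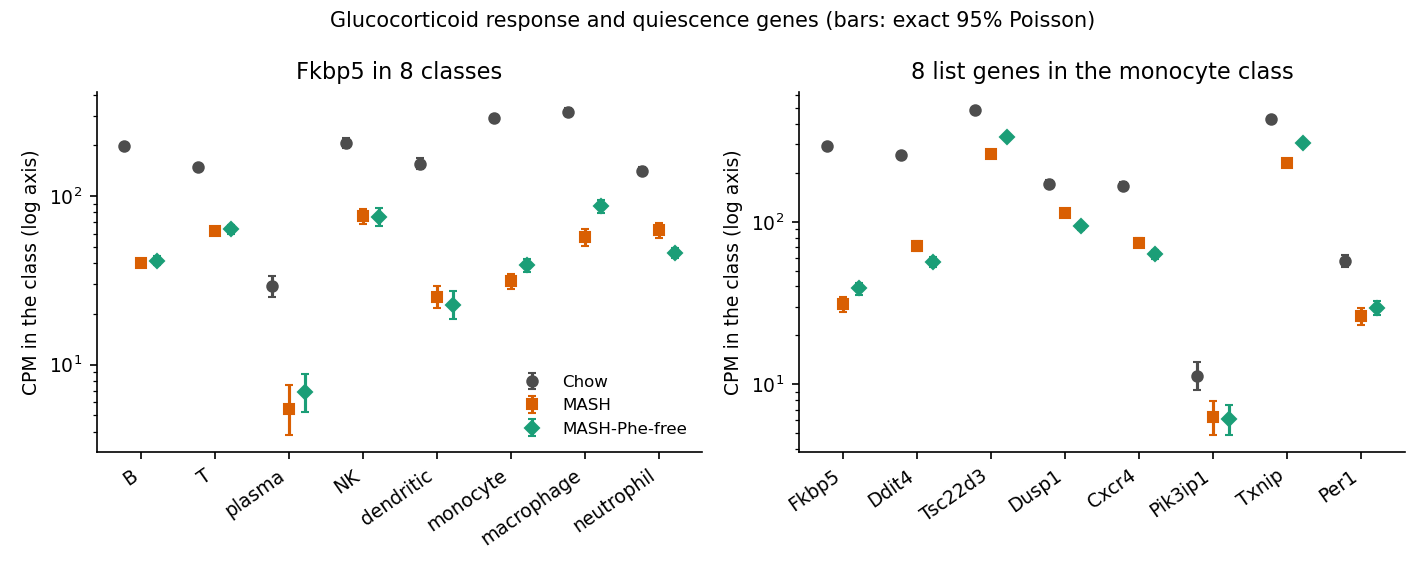
Expression (CPM, log axis) of Fkbp5 in each class, and of glucocorticoid response and quiescence genes in monocyte-like cells only. The Chow, MASH and MASH-Phe-free libraries are shown, 1 library per group. In every class Fkbp5 is highest in Chow, and the MASH and MASH-Phe-free points lie near each other below it.

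Genes that respond to amino acid supply differed little between MASH-Phe-free and Chow in most classes. The median of the ATF4 target list was −0.04 in B-like, 0.02 in T-like, −0.06 in monocyte-like and −0.07 in neutrophil-like cells. Medians of the TORC1 and amino acid sensing list were −0.05 in B-like, −0.04 in T-like and −0.05 in plasma-like cells, and those of the phenylalanine transport and use list −0.10, −0.02 and −0.03. Over all genes read the median was −0.03 in B-like, −0.01 in T-like and −0.03 in plasma-like cells. The phenylalanyl-tRNA synthetase genes stood close together in B-like cells, Farsa at 51.8, 47.2 and 47.1 CPM and Farsb at 128, 119 and 120.4 CPM. Il4i1, a secreted oxidase that consumes phenylalanine, was the member of the phenylalanine list that stood apart in B-like cells, at 55.2, 73.8 and 84.0 CPM and a ratio of 1.52 [1.44–1.61].

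In plasma-like cells several ATF4 targets were higher in MASH-Phe-free than in Chow, with MASH near Chow. The list median there was 0.15 in MASH-Phe-free and −0.02 in MASH. It was of like size in progenitor-like cells, at 0.15, and between −0.08 and 0.08 in the other classes. Psat1, of serine synthesis, stood at 8.97, 8.92 and 18.9 CPM (ratio 2.10 [1.56–2.87]), and Phgdh, the first enzyme of that route, at 94.4, 93.9 and 139 CPM (ratio 1.47 [1.33–1.62]). Shmt2, which passes one-carbon units from serine in mitochondria, stood at 36.9, 35.2 and 65.3 CPM (ratio 1.77 [1.52–2.06]). Chow and MASH were alike for all of these and MASH-Phe-free was higher. The part of the cycling cluster named plasma-like held 6 Chow, 6 MASH and 11 MASH-Phe-free cells, and its part in these values is not given here. The amino acid transporter Slc7a5 stood at 36.8, 41.2 and 57.0 CPM (ratio 1.55 [1.33–1.81]) and Asns, asparagine synthetase, at 25.6, 24.9 and 34.1 CPM (ratio 1.33 [1.10–1.62]). Of the cytosolic aminoacyl-tRNA synthetases, 17 of 20 were higher in plasma-like cells, beside 41.1% of all genes, at a median of 0.12.

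Oxidative phosphorylation genes, which encode the respiratory chain, were slightly higher in nearly all members. Their median was 0.12 in B-like (49 of 54 higher, beside 35.1% of genes), 0.12 in T-like, 0.22 in NK-like, 0.19 in monocyte-like and 0.17 in macrophage-like cells. The MASH medians were 0.12, 0.11, 0.16, 0.23 and 0.20. In plasma-like cells it was 0.24 in MASH-Phe-free against −0.01 in MASH.

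In neutrophil-like cells MASH stood apart and MASH-Phe-free resembled Chow in granule genes and in activation genes. Camp (ENSMUSG00000038357), the cathelicidin of secondary granules, stood at 34373 CPM in Chow, 15135 CPM in MASH and 34361 CPM in MASH-Phe-free. Ngp, another granule protein, stood at 50796, 23455 and 52931 CPM, lactoferrin (Ltf) at 10971, 5087 and 10546 CPM and the iron-siderophore binder Lcn2 at 15026, 7013 and 13951 CPM. The secondary granule list had a median of −0.03 in MASH-Phe-free and −1.07 in MASH. In the other direction the cytokine Il1b stood at 974, 3374 and 949 CPM, the chemokine receptor Cxcr2 at 904, 2051 and 831 CPM and Acod1, which makes itaconate, at 26.5, 357 and 34.1 CPM. For all of these MASH was the odd library and MASH-Phe-free lay within 1.5-fold of Chow.

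The mix of maturation stages moved with this pattern, and immature neutrophils were more frequent in MASH-Phe-free than in Chow. The cluster led by Fcnb, Camp and Cebpe, genes of precursors, held 90 Chow, 18 MASH and 231 MASH-Phe-free cells, and the cluster led by Ly6g, Mmp8 and Ltf 419, 83 and 679 cells. The mature cluster led by Il1b, Csf3r and Cxcr2 held 613, 799 and 1017 cells. As these genes defined the clusters, cell numbers and summed levels describe the same difference. Within the mature cluster Il1b stood at 4939, 5511 and 5122 CPM and Cxcr2 at 3243, 3063 and 2945 CPM, close together in all libraries. There Isg15 stood at 826, 2301 and 1165 CPM and Acod1 at 130.1, 575 and 172 CPM, still highest in MASH, Fkbp5 at 459, 78.0 and 89.8 CPM and Camp at 260.2, 5.59 and 27.0 CPM, both highest in Chow. Primary granule genes, made in the earliest precursors, had a median of 0.57 in MASH-Phe-free and −0.24 in MASH over the class. In the mature cluster the median was 0.034 (MASH-Phe-free), with only 3 members read. Of the primary granule genes, the proteases Prtn3 stood over the class at 120.0, 152 and 256 CPM (ratio 2.13 [2.01–2.26]) and Elane at 195, 164 and 293 CPM, highest in MASH-Phe-free. Markers of erythroid cells summed to 75.4, 4186 and 383 CPM in neutrophil-like cells of Chow, MASH and MASH-Phe-free. Their part in these values was not tested.

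Some neutrophil genes differed between MASH-Phe-free and Chow themselves. The stefins Cstdc5 and Stfa1, inhibitors of cysteine proteases, stood at 378, 203 and 90.4 and 361, 358 and 108 CPM, at ratios of 0.239 [0.227–0.252] and 0.298 [0.284–0.314]. They belong to a family of near-identical copies, so reads could be split among them. The phosphatase gene Dusp1, a glucocorticoid target, stood at 689, 1252 and 314 CPM and Olfm4, a granule protein of a neutrophil subset, at 759.6, 428 and 306 CPM, both lowest in MASH-Phe-free. Within the mature cluster Dusp1 stood at 3369, 2031 and 1613 CPM, highest in Chow and lower in both MASH libraries. Higher than Chow were Wfdc17 at 24.3, 189 and 52.2 CPM, the uridine phosphorylase Upp1 at 19.8, 132 and 42.0 CPM and the linker histone H1f5 at 169, 84.1 and 303 CPM. The first and second of these lay between Chow and MASH, and H1f5 was low in MASH.

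**Figure D4:**
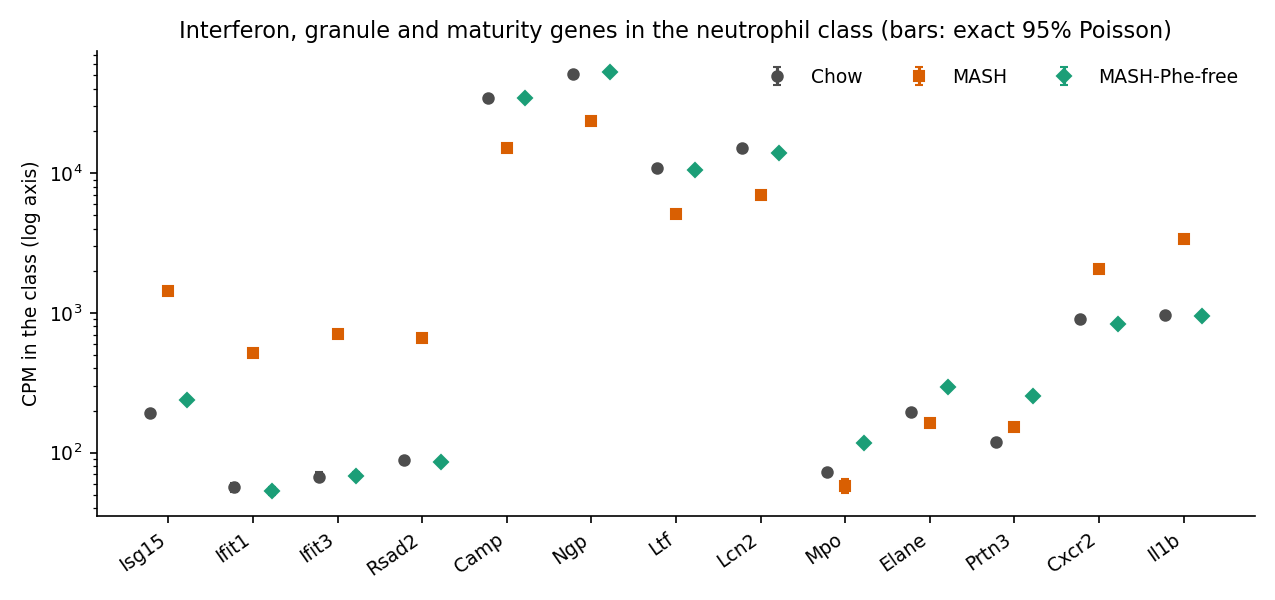
Expression of granule, activation and interferon genes in neutrophil-like cells (CPM, log axis) in the Chow, MASH and MASH-Phe-free libraries, 1 library per group. For Camp, Ltf, Il1b, Cxcr2, Isg15 and Ifit1 the MASH-Phe-free point lies near the Chow point and the MASH point stands apart.

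Monocyte-like cells kept a higher lysosomal protease and lower Chil3 than in Chow. Ctsc, which activates serine proteases of granules, stood at 419 CPM in Chow, 902 CPM in MASH and 798 CPM in MASH-Phe-free, a ratio of 1.90 [1.84–1.97]. Chil3, a chitinase-like protein, stood at 698, 315 and 281 CPM, a ratio of 0.402 [0.386–0.418]. Both MASH libraries lay on the same side of Chow. Under the 2-fold rule Chil3 had stayed away, while Ctsc fell short of 2-fold in MASH-Phe-free. Lrg1, a glycoprotein of inflammation, counted as stayed and lay between Chow and MASH, at 4.66, 59.2 and 20.5 CPM. For this gene 1 cell held 35.3% of the MASH-Phe-free UMIs. Back at Chow were Slfn4, an interferon-responsive gene of myeloid cells, at 20.2, 78.7 and 27.2 CPM, and, in the other direction, the complement subunit C1qa at 190.4, 86.5 and 193 CPM and the lipid carrier Apoe at 220.1, 50.5 and 153 CPM. The macrophage marker list summed to 917, 634 and 979 CPM in this class, lowest in MASH as were C1qa and Apoe, and its part in them was not tested. Ccl8 (67.0, 0.450 and 1.35 CPM) and Spp1 (74.5, 6.03 and 7.22 CPM) were among the genes farthest below Chow, but 1 Chow cell held 96.8% and 48.7% of their Chow UMIs. At a finer clustering the log2 ratio of Spp1 was 0.24 and that of Apoe 0.13.

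Dendritic-like cells of MASH-Phe-free carried more transcripts of the lectin receptors Cd209a and Cd209c, of Mgl2 and of Ccr2. Cd209a and Cd209c, expressed by type 2 conventional and monocyte-derived dendritic cells, stood at 167, 282 and 366 and 25.5, 38.3 and 70.5 CPM, ratios of 2.19 [2.02–2.39] and 2.76 [2.24–3.43]. Mgl2, a galactose lectin, stood at 31.8, 50.02 and 86.7 CPM and the chemokine receptor Ccr2 at 123, 193 and 271 CPM. In each case MASH lay between Chow and MASH-Phe-free. Dendritic parts led by Cd209a held 41 Chow, 69 MASH and 92 MASH-Phe-free cells. The larger cluster led by H2-M2, Cd209a and Clec4a4, genes of type 2 conventional dendritic cells, went the other way in MASH-Phe-free, with 308, 475 and 213 cells and a ratio of 0.696 [0.586–0.828]. Lower in both MASH libraries was the sulfotransferase Sult1a1, at 166, 32.8 and 34.0 CPM. Retnla (137, 14.1 and 4.69 CPM) and Lyz1 (49.1, 9.13 and 5.27 CPM) were lower as well, with 86.8% and 85.2% of their Chow UMIs in 1 cell. Neutrophil markers summed to 1057, 119 and 337 CPM and erythroid markers to 48.5, 1023 and 896 CPM in this class, and their part in these values was not tested.

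Macrophage-like cells of MASH-Phe-free had more of the genes of iron handling and of the cell cycle than those of Chow. The iron recycling list had a median of 0.31 in MASH-Phe-free and 0.20 in MASH, with 15 of 17 members higher, beside 42.5% of genes. Hmox1, which breaks down haem, stood at 3306 CPM in Chow, 4183 CPM in MASH and 4908 CPM in MASH-Phe-free, a ratio of 1.48 [1.45–1.51]. The ferritin heavy chain Fth1 stood at 5597, 6488 and 7909.9 CPM and the transferrin receptor Tfrc at 18.1, 26.8 and 40.5 CPM. MASH-Phe-free was the highest library for all of these. The erythroid marker list summed to 1497, 5026 and 7015 CPM in this class, in the same order, and its part was not tested. Siglec1, a sialic acid receptor of macrophages at the marginal zone, stood at 24.0, 39.6 and 85.3 CPM, a ratio of 3.55 [2.87–4.42], and Vcam1, an adhesion molecule of red pulp macrophages, at 5969, 3727 and 4303 CPM, lower in both MASH libraries.

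Cell cycle genes in macrophage-like cells had a median of 0.58 in MASH-Phe-free and 0.40 in MASH, with 31 of 31 higher and 5 past 2-fold, beside 0.202% of genes. Top2a, a topoisomerase of dividing cells, stood at 13.1, 35.5 and 53.4 CPM and Ube2c, of mitotic exit, at 3.85, 26.3 and 33.2 CPM, so that both MASH libraries were above Chow. The part of the cycling cluster named macrophage-like held 2 Chow, 41 MASH and 21 MASH-Phe-free cells, and without it the list median was 0.48 in MASH-Phe-free. The erythroid marker sum of this class, given above, had the same order as Top2a and Ube2c. Its part in the cell cycle values was not tested. Class II antigen presentation genes were near Chow in MASH-Phe-free, and lower but not past 2-fold in MASH, with list medians of 0.06 in MASH-Phe-free and −0.31 in MASH. H2-Aa stood at 2731, 1750.3 and 2713 CPM and the invariant chain Cd74 at 11575, 7781 and 12367 CPM. Among the named genes farthest below Chow were B cell genes, the transcription factor Ebf1 at 149, 34.1 and 19.7 CPM and Aff3 at 84.7, 12.8 and 15.3 CPM. The B marker list summed to 961, 853 and 734 CPM in these shallow cells, and its part was not tested.

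In erythroid-like cells the late programme was near Chow in MASH-Phe-free. The list of late erythroid and haem synthesis genes had a median of 0.23 in MASH-Phe-free and 0.97 in MASH, with 13 of 28 past 2-fold in MASH, beside 0.862% of genes, and 0 in MASH-Phe-free, beside 0.0768%. The β-globin Hbb-bs stood at 9596, 96706 and 11441 CPM and the α-globin Hba-a1 at 1087, 13581 and 1265 CPM, both genes with near-identical copies. Alas2, the first enzyme of haem synthesis in red cells, stood at 73.6, 691 and 88.5 CPM and the anion exchanger Slc4a1 at 141, 719 and 171 CPM. Klf1, the regulator of the lineage, varied less, at 326, 405 and 414 CPM. These levels describe the same shift of stages as the cluster sizes, and the Chow class held 113 cells.

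In B-like cells the surface protein Ly6a (Sca-1), an interferon-induced gene, stood at 59.3 CPM in Chow, 275 CPM in MASH and 138 CPM in MASH-Phe-free, a ratio of 2.33 [2.22–2.45]. The only other gene past 2-fold higher was the β-globin Hbb-bs, at 10.1, 137 and 62.0 CPM, with 32.7% of its MASH-Phe-free UMIs in 1 cell. Ly6a lay between Chow and MASH and counted as stayed. Ifi27l2a, also interferon-induced, stood at 147, 394 and 244 CPM, Plac8 at 452, 589 and 686 CPM and Ly6d, an early B cell surface protein, at 304, 456 and 475 CPM. MASH-Phe-free was above Chow for each. On the low side were the RNA-binding protein Zfp36l2 at 376, 185 and 121 CPM (ratio 0.322 [0.311–0.334]), the adhesion molecule Lsamp at 171, 84.2 and 64.2 CPM, Pik3ip1 at 132, 47.3 and 51.6 CPM and Gprc5b at 32.8, 8.31 and 10.7 CPM. Both MASH libraries lay below Chow for these 4, and MASH-Phe-free lay lower than MASH for Zfp36l2 and Lsamp. The smaller B-like share held for both main clusters, that led by Fcer2a, a follicular gene, with a ratio of 0.668 [0.626–0.712] and that led by Cr2, a marginal zone gene, with 0.817 [0.770–0.866]. Lists of marginal zone, follicular and cell cycle genes had medians of 0.08, −0.03 and 0.06, near those of all genes.

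T-like cells of MASH-Phe-free had more transcripts of Ccl5 and of the activation receptor Tnfrsf9 and fewer of Il7r than those of Chow. The chemokine Ccl5, made by effector and memory T cells, stood at 87.0 CPM in Chow, 318 CPM in MASH and 227 CPM in MASH-Phe-free, a ratio of 2.61 [2.48–2.75]. It was detected in 6.67%, 10.3% and 9.70% of T-like cells in that order. Tnfrsf9 (4-1BB) stood at 30.9, 47.9 and 53.6 CPM and Ly6a at 165, 302 and 263 CPM. Foxp3, the factor of regulatory T cells, stood at 97.1, 95.3 and 123 CPM, with a median of 0.17 for the regulatory list, which was −0.012 with the clusters weighted alike. MASH-Phe-free stood above Chow for all 4. Penk, which encodes enkephalin, stood at 14.4, 23.6 and 63.3 CPM, with 28.3% of its MASH-Phe-free UMIs in 1 cell. By the log2 ratio taken after adding 10 CPM, only the immunoglobulin gene Igkv1-110 lay farther above Chow in this class. For Igkv1-110, 1 cell held 95.7% of the MASH-Phe-free UMIs. Il7r, the receptor of the survival cytokine interleukin 7, stood at 1261, 736 and 829 CPM, Txnip, an inhibitor of glucose uptake, at 693, 376 and 409 CPM, Bbc3, the pro-apoptotic PUMA, at 43.4, 18.7 and 19.1 CPM and Trnp1 at 48.1, 12.7 and 12.3 CPM. These 4 were low in both MASH libraries. The cluster led by Igfbp4, Lef1 and Cd4, genes of naive helper cells, had a share ratio of 0.559 [0.506–0.619], that led by Cd8b1 and Cd8a one of 0.655 [0.589–0.728] and that led by Foxp3 one of 0.812 [0.718–0.917]. Parts of the effector cluster, led by Gzmk, Ccl5, Cxcr6 or Nkg7, went the other way, with 402, 545 and 457 cells and a ratio of 1.14 [1.003–1.31]. Levels of the class are pooled over its clusters, so their mix enters the values above. Its part in those of Ccl5, Tnfrsf9 and Il7r is not given here. The list of naive T genes had a median of −0.10 and that of cytotoxic genes 0.17.

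Plasma-like cells were nearly all of the Ighm class in each library. By its most abundant heavy chain constant gene, 284 of 302 Chow, 247 of 259 MASH and 343 of 384 MASH-Phe-free cells were Ighm. Class-switched cells numbered 18, 12 and 41, a ratio of their share of 1.79 [1.05–3.05] in MASH-Phe-free over Chow. Of these, 15, 5 and 24 were Igha, and 2, 0 and 7 were Ighg1. Among the regulators of the class, Prdm1 (Blimp-1) stood at 141, 91.1 and 106 CPM (ratio 0.756 [0.691–0.828]), Irf4 at 287, 223 and 214 CPM and Xbp1 at 1119, 1239 and 1263 CPM (ratio 1.13 [1.10–1.16]), so the first pair was lower and the third slightly higher than in Chow. Tnfrsf17 (BCMA), the survival receptor of plasma cells, stood at 68.0, 76.9 and 90.7 CPM and syndecan-1 (Sdc1) at 86.7, 124 and 120.1 CPM, while the survival gene Bcl2 stood at 169, 116 and 95.2 CPM (ratio 0.565 [0.516–0.618]). The secretory programme did not separate the libraries, with a median of 0.02 for the genes of folding and secretion. Slpi, a protease inhibitor, was the named gene farthest above Chow at 67.1, 1164 and 685 CPM (ratio 10.2 [9.27–11.3]), with 18.5% of its MASH-Phe-free and 77.5% of its MASH UMIs in 1 cell. The metallothionein Mt1 stood at 33.6, 43.2 and 119 CPM, Znrf3, an inhibitor of Wnt receptors, at 29.2, 53.1 and 72.0 CPM and the surface antigen Cd52 at 379.5, 718 and 798 CPM, so each was above Chow in both MASH libraries. Zfp36l2 (183, 46.8 and 36.6 CPM), the stress protein Sesn1 (339, 129 and 114 CPM), the phosphatase Dusp2 (37.5, 18.8 and 9.88 CPM) and Atp1b1, a subunit of the sodium pump (82.7, 35.2 and 29.3 CPM), were below Chow in both.

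NK-like cells of MASH-Phe-free had more cell cycle transcripts. The list median was 1.10 in MASH-Phe-free and 0.75 in MASH, with 32 of 32 members higher and 17 past 2-fold, beside 0.706% of genes. Top2a stood at 61.5 CPM in Chow, 227 CPM in MASH and 248 CPM in MASH-Phe-free, and the replication-linked histones H1f5 at 35.6, 169 and 259 CPM and H2ac8 at 41.6, 188 and 315 CPM. Ube2c stood at 8.37, 80.9 and 111 CPM. Both MASH libraries lay above Chow for all 4. These genes come from few cells: the part of the cycling cluster named NK-like held 1 Chow, 10 MASH and 11 MASH-Phe-free cells, and without it the list median was 0.34 and 21 genes, not 87, were past 2-fold. The granule protease Gzma, the main effector gene of the class, stood at 5968, 8198 and 6183 CPM, with MASH-Phe-free near Chow. Pik3ip1 (107, 27.9 and 27.8 CPM) and the matrix protease Mmp16 (144, 40.1 and 52.8 CPM) were lower in both MASH libraries.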

How the data were processed

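Spleen cells were captured with a 5′ single-cell kit in 1 library per group, per the labels' protocols. The deposited values are counts of UMIs per gene (33696 genes) and barcode, whole numbers per the file headers; Cell Ranger 9.0.1, Seurat 5.3.0 (role not given) and GRCm39/mm39 are named in the submitters' processing notes. No barcode held under 500 UMIs. The other deposited columns hold gene identifiers, symbols and barcodes.

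Filters are given in the report. Barcodes under 300 genes numbered 240, 1235 and 602 and those over 10% mitochondrial UMIs 336, 441 and 627, some both. Scrublet called 315, 318 and 304 doublets, which were removed; others may remain. Cells of all libraries were scaled to 10000 UMIs and clustered (2000 genes, 30 components, 15 neighbours, Leiden resolution 1.0, parts at 0.5, 87 clusters; scanpy 1.11.5, Python 3.11.15, scipy 1.17.1). Clusters were named from 15 marker lists; thresholds for naming were set after the clusters were seen. CPM came from sums of 1 class in 1 library, which held between 3560657 and 41161194 UMIs. Shares carry Clopper-Pearson, share ratios log-scale binomial and CPM ratios exact conditional Poisson intervals. Genes needed 50 UMIs over the 2 libraries, and for stayed or back 30 CPM and 50 UMIs over the 3 libraries. Named genes were the 4 farthest apart each way per class, the 3 farthest of those stayed or back, up to 4 members of each list and members with a role; Lrg1, Acod1, Gzma, Olfm4, Hbb-bs in B-like and Igkv1-110 in T-like cells and the germinal centre cells were added after their values were seen. Where a symbol occurs on 2 rows the one with more UMIs was used. The comparison and the 48 gene lists were chosen with earlier results of these data known. The scripts were tested on simulated data.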

Additional observations from a re-analysis of the deposited data

How the results depend on the processing

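No paired analysis was possible because each group has 1 library and the labels give no replicate numbers, and for the same reason no library could be left out. Of the medians of gene lists recomputed under other settings, 595 lay within the counting interval of the main value, 27 lay outside it and 5 were counted as reversed. Reversed means a changed direction where the main interval left out equality with Chow. Other changes of direction are counted among the first numbers. Of the share ratios the numbers were 64, 7 and 3. The ratios of single named genes were less steady, with 713, 174 and 10. Counts of genes past 2-fold moved by over 1.5 times in 19 of 93 recomputations, those of genes that stayed in 17 of 84 and those back at Chow in 7 of 84. The settings were chosen with earlier results of these data known, and 4 of them, named as added, after the present values were seen. The cause of each shift was not tested unless the setting itself shows it (fewer genes, cells or clusters read). With an offset of 1 CPM, which lets in low genes, the genes past 2-fold numbered 49 in B-like, 72 in T-like, 219 in plasma-like, 196 in NK-like, 163 in dendritic-like, 155 in monocyte-like, 344 in macrophage-like and 126 in neutrophil-like cells. Those that stayed away numbered 12 in B-like, 60 in NK-like, 28 in monocyte-like, 49 in macrophage-like, 11 in neutrophil-like and 24 in erythroid-like cells, and those back at Chow 21 in monocyte-like and 621 in neutrophil-like cells. At that offset the glucocorticoid median was −0.57 in B-like, −0.57 in monocyte-like and −0.54 in neutrophil-like cells, the cell cycle median 1.86 in NK-like and 1.32 in macrophage-like cells, and the interferon-γ median −0.23 in neutrophil-like cells. With the clusters of a class weighted alike, genes back at Chow numbered 31 in neutrophil-like, 33 in erythroid-like and 2 in B-like cells, those that stayed 11 in NK-like, 17 in macrophage-like and 16 in neutrophil-like cells, and those past 2-fold 21 in NK-like and 53 in macrophage-like cells. The medians were then 0.33 (cell cycle, NK-like), −0.016 (cell cycle, T-like), −0.012 (regulatory list, T-like), −0.0099 (naive list, T-like), 0.052 and 0.16 (type I interferon and primary granule, neutrophil-like) and −0.17 (lipid-associated macrophage genes, monocyte-like), with log2 ratios of 0.38 for Cd9 in monocyte-like and −0.041 for H1f3 in neutrophil-like cells. When cells were classed one by one, the share ratio was 0.973 for plasmacytoid-, 1.01 for dendritic- and 0.701 for T-like cells, and 3 neutrophil and 17 macrophage genes stayed. The medians were −0.15 (naive) and 0.48 (cytotoxic) in T-like, 0.23 (cell cycle) in B-like, 0.12 (primary granule) in neutrophil-like and −0.18 (lipid-associated) in monocyte-like cells, with 1.21 for Saa3, 0.034 for Ccl8 and 0.14 for Cd9. At Leiden resolution 2.0, 43 macrophage genes were back at Chow, 3 T genes stayed and 9 were past 2-fold, the lipid-associated median in monocyte-like cells was 0.0066, and the log2 ratios there were 0.079 for Cd9, 1.51 for Saa3, 0.13 for Apoe and 0.24 for Spp1. With erythroid-, neutrophil-, macrophage-like and unnamed cells left out of the total, share ratios were 0.889 (B), 0.800 (T), 1.55 (plasma), 1.08 (NK), 1.07 (dendritic) and 1.84 (monocyte), so those of NK and dendritic crossed 1. A stricter cell filter gave a macrophage share ratio of 1.58 and 55 macrophage genes that stayed, and keeping doublets 11 neutrophil genes that stayed. Median-of-ratios scaling gave medians of 0.040 (follicular) and 0.18 (oxidative phosphorylation) in B-like and 0.033 (secondary granule) in neutrophil-like cells. With no minimum beyond 1 UMI the glucocorticoid medians were −0.15 in plasma-like and −0.19 in macrophage-like cells. In the mature neutrophil cluster alone (added), 59 genes were past 2-fold, 24 stayed and 46 were back, with medians of 0.089 (type I interferon), 0.074 (interferon-γ), −0.51 (glucocorticoid), 0.034 (primary granule) and −0.062 (secondary granule), and 0.013 for Stfa3. Without the parts of the cycling cluster (added), 21 NK genes were past 2-fold, 11 stayed, and the cell cycle median was 0.34 in NK-like and 0.063 in T-like cells. With every cluster given its best marker list (added), 113 dendritic genes were past 2-fold, 49 stayed, and the cytotoxic T median was 0.32. Without genes that had over 25% of their UMIs in 1 cell (added), 28 genes in plasma-like, 26 in dendritic-like, 12 in monocyte-like, 10 in neutrophil-like and 6 in T-like cells were past 2-fold.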
